A study of Mus musculus with 35 samples.

Results

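Sall4, Sall1, Tfcp2l1, L1td1, Gdf3, Eras and Tbx3 are 7 genes of the mouse stem cell programme, found by symbol among 21350 genes of an RNA sequencing table, and all 7 were present. They were chosen by their measured levels, as stem cell genes already seen to be higher in OB or OA cells by day 6 or 14 in these same libraries. Their levels in those cells at those days are therefore a description. Where the text says that such a difference was called, limma's adjusted p over all genes was below 0.05, but this restates the choice of members and is no test of them. All 7 passed the filter on low values that left 13860 genes, but Eras passed only through 2 OB libraries of day 14. Gdf3 passed only through OB and OA libraries of days 6 and 14, the groups where it is high.

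The cells were infected with factor combinations labelled ODR, OA, OB, ODDR or ODB, names that the labels do not spell out, and then cultured in the reprogramming medium iCD1. The submitters describe the work as reprogramming with Oct4 and Kdm2b and its link to the Polycomb complex PRC1.1. Cultures labelled with BMP4 received that growth factor at 10 ng/ml from the change to iCD1 on, and the others received none. Poly-A selected RNA was sequenced in 35 libraries. Without BMP4, ODR, OA and OB each have 2 libraries at day 1, ODR has 2, OA 3 and OB 4 at day 6, and each has 3 at day 14. With BMP4, at day 6, ODR has 1 library and OB 2. ODDR and ODB at day 9, mouse embryonic stem cells (mESC) and mouse embryonic fibroblasts (MEF) have 1 library each. The starting cells, strain and age of the infected cells, and whether replicates were separate cultures, are not given in the sources used here, so every p-value here rests on library-to-library spread, possibly technical in part.

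The label check rests on the demethylase genes Kdm2b and Kdm2a. Kdm2b was between 4220 and the table's ceiling of 18690 in every OB library and at most 460 in every ODR library. Kdm2a was between 9294 and the ceiling in the OA libraries, apart from the library labelled OA day 14 replicate 2, at 721. That library is kept under its label, and results that rest on it are also given without it. Oct4 (Pou5f1) was at the ceiling in every infected library apart from OB day 14 replicate 1, at 7086. In 2 cases 1 library stands under 2 labels, the same in each of the 21350 genes. The third ODR library of day 6 is also the second of ODR with BMP4, and it was left out of both groups, which is why 2 and 1 libraries remain there. The day 9 libraries labelled ODDR with BMP4 and ODB with BMP4 are also 1 library, and it enters no comparison. Values are normalized tag counts that are not divided by gene length, so levels are compared between libraries of 1 gene and, between genes, only as a percentage of each gene's level in the mESC library.

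Embryonic stem cells keep themselves undifferentiated through a network of transcription factors around Oct4. Sall4 and Sall1 are zinc finger factors of the Spalt family that bind the NuRD corepressor complex, and Sall4 works beside Oct4. Tfcp2l1, a relative of the grainyhead factors, and Tbx3, a T-box factor, belong to the naive state that the LIF and STAT3 pathway maintains. L1td1 is an RNA-binding protein of stem cells derived from a LINE-1 element, Gdf3 is a TGF-beta family ligand of the Nodal branch, and Eras is a Ras-like GTPase that promotes stem cell growth. Several of these genes also act outside stem cells, Tbx3 and the Spalt genes in the limb bud and Sall1 in the kidney.

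On mouse build mm10 (GRCm38, GENCODE M21 annotation), Sall4 lies on chromosome 2 from 168748332 to 168767943 on the minus strand. Sall1 lies on chromosome 8 from 89027235 to 89044162 (minus strand), and Tfcp2l1 on chromosome 1 from 118627945 to 118685168 (plus strand). L1td1 lies on chromosome 4 from 98726734 to 98738480 (plus strand), Gdf3 on chromosome 6 from 122605403 to 122610087 (minus strand), Eras on chromosome X from 7924276 to 7928607 (minus strand) and Tbx3 on chromosome 5 from 119670669 to 119684724 (plus strand). Kdm2b and Kdm2a, which set OB and OA apart, carry a CXXC domain that binds unmethylated CpG, so the CpG content of the promoters is shown. RefSeq windows (GRCm38.p6) of the 250 bases before a start were matched for 4 of the 7 genes by symbol, with 3 starts for Sall1. Sall4, Gdf3 and Tbx3 have no window here. The windows below are written 5′ to 3′ on the gene's strand, with each CpG in capitals.
Tfcp2l1, chr1:118627695-118627944 (plus strand): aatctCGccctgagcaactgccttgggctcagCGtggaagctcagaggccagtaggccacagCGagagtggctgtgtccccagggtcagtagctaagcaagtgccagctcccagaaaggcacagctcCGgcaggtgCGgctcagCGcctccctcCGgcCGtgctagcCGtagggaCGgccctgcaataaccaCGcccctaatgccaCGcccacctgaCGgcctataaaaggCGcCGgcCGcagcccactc
L1td1, chr4:98726504-98726753 (plus strand): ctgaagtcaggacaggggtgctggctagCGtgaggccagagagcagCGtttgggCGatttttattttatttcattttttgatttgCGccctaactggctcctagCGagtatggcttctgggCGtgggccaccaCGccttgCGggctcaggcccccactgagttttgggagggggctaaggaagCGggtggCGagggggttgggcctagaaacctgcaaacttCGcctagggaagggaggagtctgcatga
Sall1, chr8:89044163-89044412 (minus strand), the outermost start: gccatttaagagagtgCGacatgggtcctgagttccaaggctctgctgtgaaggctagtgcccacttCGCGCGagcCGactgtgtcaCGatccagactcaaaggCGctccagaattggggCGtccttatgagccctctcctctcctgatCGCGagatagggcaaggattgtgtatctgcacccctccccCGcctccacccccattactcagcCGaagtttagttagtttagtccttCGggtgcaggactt
Eras, chrX:7928608-7928857 (minus strand): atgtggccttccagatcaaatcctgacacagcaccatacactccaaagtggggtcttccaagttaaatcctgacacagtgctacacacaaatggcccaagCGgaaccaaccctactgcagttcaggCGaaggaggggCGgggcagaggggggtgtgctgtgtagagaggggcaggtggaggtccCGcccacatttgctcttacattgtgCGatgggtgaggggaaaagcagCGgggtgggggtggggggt
The Tfcp2l1 window holds 16 CpG, and 25.4% of all 32851 windows hold as many or more. For L1td1 the number is 11 (35.6%), for the outermost Sall1 start 13 (31.5%) and for Eras 6 (50.4%), which is the median of all windows. The inner Sall1 starts have 25 (10.7%) and 30 (5.94%) CpG. The octamer ATGCAAAT, the classical Oct factor motif, was searched on both strands and is in none of the 6 windows, against 1.60% of all windows. The windows describe the loci only, since binding and methylation were not measured in the libraries used here.

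**Figure D1:**
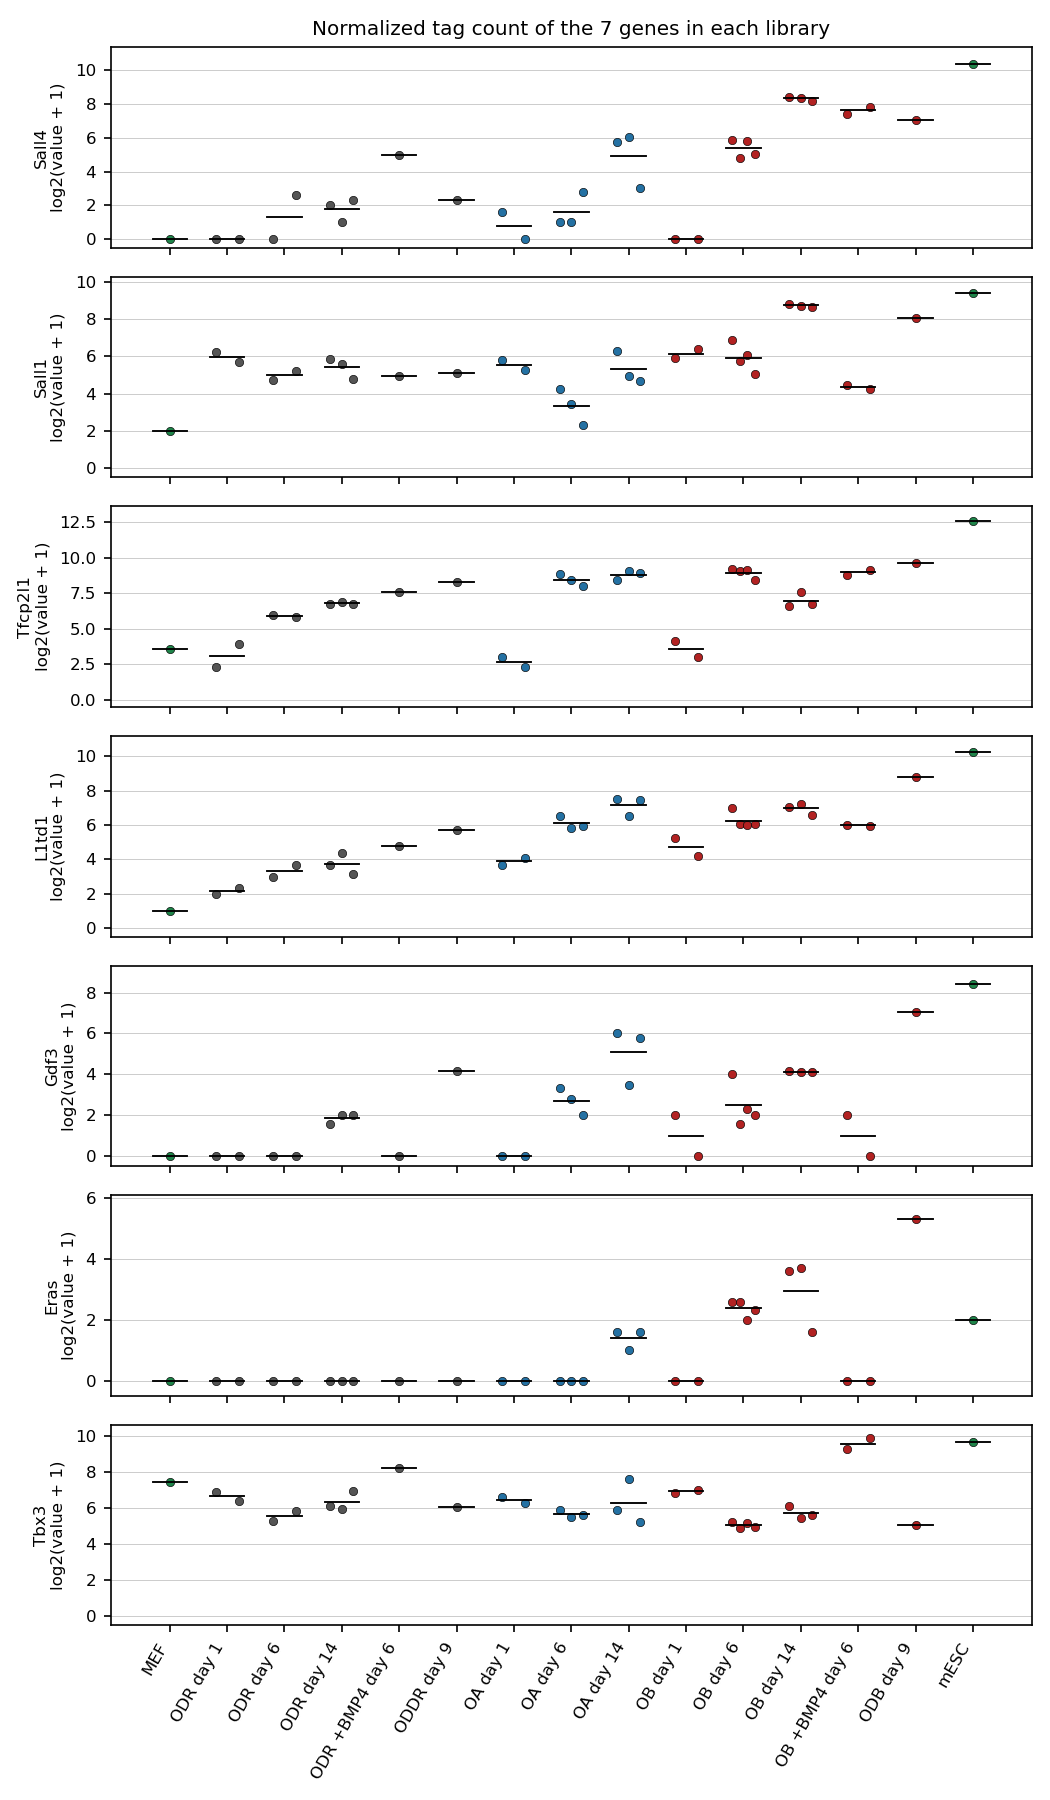
Normalized tag count of the 7 genes, as log2(value + 1), in each library (points) of each condition (columns), with a line at the condition mean; grey is ODR and ODDR, blue OA, red OB and ODB, green MEF and mESC. Sall4 is near 0 in ODR and highest in mESC and OB day 14, Tfcp2l1 is high in both OB and OA at day 6, and Tbx3 is high in the libraries with BMP4.

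Both Spalt factors had their highest values of any infected library in OB at day 14. Sall4 was 0 and 0 in the day 1 libraries of OB, 58, 27, 55 and 32 at day 6, and 346, 330 and 292 at day 14. The ODR libraries without BMP4 stayed between 0 and 5 at every day. Every OB library of days 6 and 14 was thus above every ODR library without BMP4, and day 14 was above day 6 without overlap. In bulk RNA, more cells with a gene on and more RNA per cell cannot be told apart, for Sall4 as for all that follows. In OA, Sall4 was between 0 and 6 up to day 6 and 53, 66 and 7 at day 14, where the lowest library is close to the ODR range. Relative to ODR the difference of mean log2(value + 1) was 4.09 ± 0.78 (SE) for OB at day 6 and 6.56 ± 0.74 at day 14. For OA at day 14 it was 3.17 ± 0.74, and 2.60 without the library labelled replicate 2. Of the replicated groups, OB day 14 stood first, then OB with BMP4 at day 6, each clear of the next, while OB day 6 and OA day 14 overlapped.

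Sall1 took another course, since it was already present in every group at day 1. It was 73 and 50 in ODR, 55 and 38 in OA and 60 and 82 in OB at day 1. At day 6 the OB libraries held 115, 52, 66 and 32, the ODR libraries 26 and 36 and the OA libraries 18, 10 and 4. OB and ODR overlapped there, and OA lay below both. At day 14 OB reached 452, 425 and 407, against 27 to 56 in ODR and 25 to 78 in OA. No other replicated group overlapped OB day 14, and the groups from OB day 1 down to ODR day 6 each overlapped the next in order. The difference to ODR was 0.94 ± 0.51 at day 6 and 3.33 ± 0.48 at day 14 for OB, and -1.64 ± 0.54 and -0.10 ± 0.48 for OA. At day 6 Sall1 thus overlapped ODR in OB and was lower in OA, so the data place its higher level at day 14 in OB. The 2 other Spalt genes, Sall2 and Sall3, are given for the family. Sall3 was 29, 30, 33 and 22 in OB against 1 and 0 in ODR at day 6, and 79, 92 and 82 against 4, 3 and 0 at day 14. Sall2 was 298, 296 and 284 in OB at day 14 against 94, 66 and 78 in ODR. Both were called higher at day 14 (limma, adjusted p = 2.84e-05 for Sall3 and 1.44e-05 for Sall2). At day 6 the call was made for Sall3 alone (limma, adjusted p = 0.00213), where 10.5% of all genes were called and 5.74% were higher. Of 13 NuRD subunits, 9 were called higher and 1 lower in OB than ODR at day 14, where 54.7% of all genes were called and 28.0% were higher (list median log2 difference 0.65, beside 0.01 over all genes tested).

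Tfcp2l1 was above ODR in both OB and OA at day 6, and at day 14 in OA alone. It was 583, 540, 550 and 350 in OB and 470, 345 and 252 in OA, against 63 and 57 in ODR. At day 14 the OA libraries were at 339, 525 and 478, but the OB libraries were at 95, 194 and 104, beside 107, 115 and 106 in ODR. In OB the level at day 14 lay below all day 6 libraries, with a difference of -1.99 ± 0.36, while the ODR level went from 4 and 14 at day 1 upward without overlap to day 6 and again to day 14. The OB minus ODR difference was 3.03 ± 0.41 at day 6 and 0.18 ± 0.38 at day 14. For OA it was 2.50 ± 0.43 and 2.0 ± 0.38. OB minus OA was 0.53 ± 0.36 at day 6 and -1.82 ± 0.38 at day 14. The first 4 groups in order (OB day 6, OB with BMP4, OA day 14 and OA day 6) each overlapped the next. Of the 5 related genes Tfcp2, Ubp1, Grhl1, Grhl2 and Grhl3, Grhl2, an epithelial factor, was called higher in OB at both days (19, 16, 32 and 22 against 2 and 4 in ODR at day 6, adjusted p = 0.00319 at day 6 and 0.000674 at day 14, limma). Ubp1 was called higher at day 14 (0.66 ± 0.14, adjusted p = 0.000534, limma), and no other gene of the family was called in OB or OA against ODR at days 6 and 14. In OB against ODR, 10.5% of all genes were called at day 6 (5.74% higher) and 54.7% at day 14 (28.0% higher). In OA the shares were 2.22% and 5.35%.

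L1td1 was above ODR in both combinations and at the earliest time. At day 1 it was 37 and 17 in OB, 12 and 16 in OA and 3 and 4 in ODR, so that both combinations lay clear of ODR. At day 6 it was 126, 65, 62 and 65 in OB and 92, 55 and 61 in OA, against 7 and 12 in ODR. At day 14 OB held 132, 152 and 96 and OA 186, 92 and 176, against 12, 20 and 8 in ODR. OB and OA overlapped at days 6 and 14. The difference to ODR was 2.55 ± 0.45, 2.91 ± 0.39 and 3.22 ± 0.37 for OB at days 1, 6 and 14, and 1.73 ± 0.45, 2.75 ± 0.41 and 3.43 ± 0.37 for OA. L1td1 was the 1 member called at day 1 in OB against ODR, where 0.880% of all genes were called, and it lost that call when ODR day 1 replicate 1 or 2 or OB day 1 replicate 1 was left out (1 of 7 members falling to 0 of 7).

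Gdf3 and Eras were at or near 0 in every infected library of day 1. Gdf3 was listed at 0 in every ODR and OA library of day 1 and in the ODR libraries of day 6, and at 3 and 0 in OB at day 1. It was 15, 2, 4 and 3 in OB and 9, 6 and 3 in OA at day 6. At day 14 it was 64, 10 and 54 in OA and 17, 16 and 16 in OB, against 2, 3 and 3 in ODR. OA was thus above OB in 2 of 3 libraries at day 14, and the third was the library labelled replicate 2. The difference of OB minus OA at day 14 was -0.97 ± 0.68, and -1.79 without that library. Nodal, the better known ligand of that branch, was listed at 0 in the infected cells apart from a value of 1 in OB day 14 replicate 1, against 560 in mESC. Eras was listed at 0 in every ODR library, in OA and OB at day 1 and in OA at day 6. It was 5, 5, 3 and 4 in OB at day 6, 2, 1 and 2 in OA at day 14 and 11, 12 and 2 in OB at day 14. The mESC library itself held only 3, so the level of Eras cannot be set against stem cells here. The groups at 0 also enter the pooled spread of Eras, so its calls rest on that spread.

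Without BMP4, Tbx3 went against its place among genes seen to be higher early. It was 119 and 85 in ODR, 96 and 78 in OA and 116 and 130 in OB at day 1. At day 6 it was lower in every library without BMP4, at 38 and 56 in ODR, 58, 44 and 48 in OA and 37, 29, 35 and 30 in OB. At day 14 it was 70, 62 and 122 in ODR, 59, 197 and 37 in OA and 70, 43 and 48 in OB. The value of 197 belongs to the library labelled OA day 14 replicate 2, and the OA mean went from 97.7 to 48 without it. The difference to ODR was -0.49 ± 0.44 and -0.62 ± 0.41 in OB and 0.10 ± 0.46 and -0.10 ± 0.41 in OA at days 6 and 14. The MEF library held 172, more than any infected library without BMP4 apart from that of 197.

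**Figure D2:**
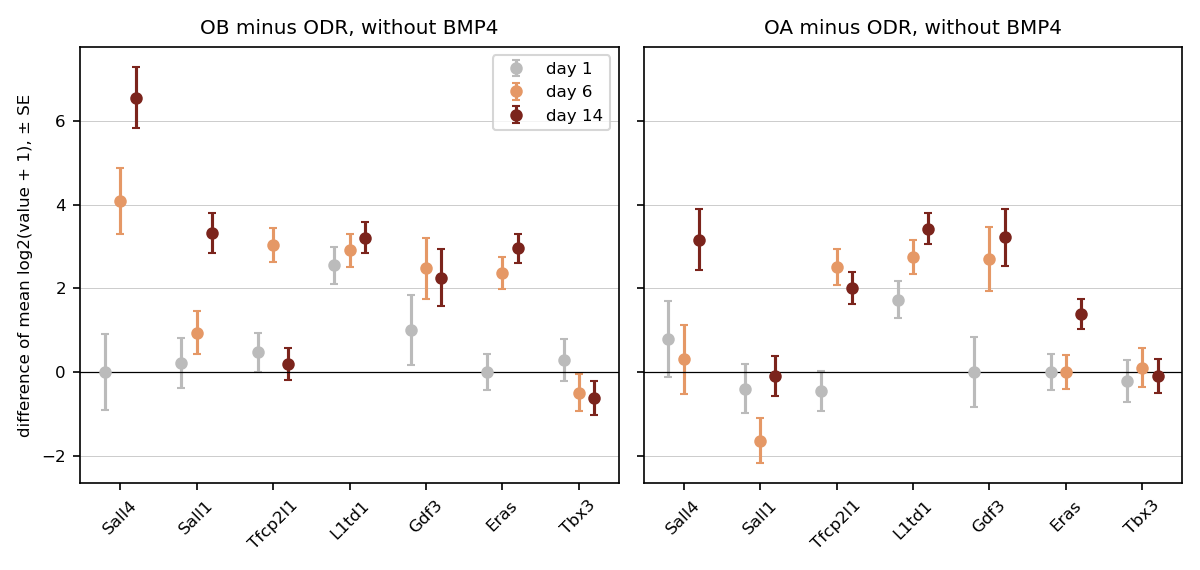
Difference of mean log2(value + 1) from ODR, with its SE, for the 7 genes (x axis) in OB (left) and OA (right) at days 1, 6 and 14, all without BMP4. Tfcp2l1 is at 3.03 in OB at day 6 and 0.18 at day 14 but at 2.50 and 2.0 in OA, while Sall4 and Sall1 reach 6.56 and 3.33 in OB at day 14.

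Counted together, 5 of the 7 members were called higher in OB than ODR at day 6 (10.5% of all genes called, 5.74% higher) and 5 at day 14 (54.7% called, 28.0% higher). In OA 2 were called higher at day 6 (2.22% of all genes called, 1.34% higher) and 5 at day 14 (5.35% called, 2.82% higher). No member was called lower in these comparisons. These counts follow from how the members were picked and carry no further weight. The members differed between days: Sall4, L1td1, Gdf3 and Eras were called in OB at both days, Tfcp2l1 at day 6 alone and Sall1 at day 14 alone, and Tbx3 at neither. OB and OA share the ODR libraries as their reference. In OA at day 14, 4 members were called without the library labelled replicate 2. At day 6, Gdf3 lost its call in OB without ODR day 6 replicate 1 or 2, or without OB day 6 replicate 1 or 3. Sall4 lost its call without ODR day 6 replicate 1. Tfcp2l1 lost its call in OA at day 6 without ODR day 6 replicate 2. At day 14 Sall4 lost its call in OA without OA replicate 1 or 2 or ODR replicate 2, and Eras lost it in OA when any 1 of 5 libraries was left out, all but the library labelled OA replicate 2.

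Set directly against each other, again as a description of the libraries that chose the members, OB and OA differed in 3 of 7 members at day 6 (7.28% of all genes called) and 4 at day 14 (51.7% called). Sall4 was higher in OB by 3.78 ± 0.69 and 3.39 ± 0.74 at these days, and Sall1 by 2.58 ± 0.45 and 3.42 ± 0.48. Eras was the third at both days, and Tfcp2l1, lower in OB at day 14, the fourth. At day 14 Gdf3 was also called, lower in OB, without the library labelled OA replicate 2, and Tbx3 without OA replicate 3. At day 1 no member was called between OA and ODR, where 0.0649% of all genes were called. L1td1 differed between OB and OA by 0.16 ± 0.35 at day 6 and -0.21 ± 0.37 at day 14.

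In time, the members followed different courses, which for OB and OA restate how they were chosen. From day 1 to day 14, 7 of 7 were called in OB (51.0% of all genes called), 6 higher and Tbx3 lower. In OA 5 were called (40.4%), all higher, and in ODR 2 were called (41.7%), Tfcp2l1 and L1td1, both higher. Tfcp2l1 was higher at day 14 than day 1 by 3.67 ± 0.43 in ODR, 6.12 ± 0.43 in OA and 3.38 ± 0.43 in OB. From day 1 to day 6 in OB, 5 were called (33.8% of all genes), with Tfcp2l1 higher by 5.37 ± 0.41, Sall4, L1td1 and Eras higher and Tbx3 lower by -1.88 ± 0.44. From day 6 to day 14, 4 were called (55.0% of all genes), with Sall4 higher by 2.95 ± 0.69, Sall1 by 2.82 ± 0.45 and Gdf3 by 1.64 ± 0.64, and Tfcp2l1 lower. The call of Gdf3 from day 6 to day 14 was lost when any 1 of 6 libraries was left out, all but OB day 6 replicate 1. The call of Tbx3 from day 1 to day 14 was lost without either OB day 1 library or without OB day 14 replicate 2 or 3. Without OB day 1 replicate 2, the calls of L1td1 to day 6 and of Gdf3 to day 14 were lost. Eras lost its call in OA without either OA day 1 library, and L1td1 lost its call in ODR without ODR day 1 replicate 1.

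OB cells at day 14 reached different fractions of the stem cell level for each gene. The OB mean at day 14 was 62.8% of the mESC library for Sall1, 24.6% for Sall4, 10.5% for L1td1, 6.67% for Tbx3, 4.85% for Gdf3 and 2.10% for Tfcp2l1. In OA at day 14 the percentages were 6.50 for Sall1, 3.21 for Sall4, 12.6 for L1td1, 12.1 for Tbx3, 12.7 for Gdf3 and 7.16 for Tfcp2l1. Without the library labelled OA day 14 replicate 2 they were 7.55, 2.29, 15.0, 5.97, 17.5 and 6.54 in the same order. The mESC library has no replicate, so no error can be given for these ratios. The library carries its defining markers, with Nanog at 2802, Zfp42 at 912 and Esrrb at 2345. In the OB libraries of day 14 the highest of the 3 markers was 7 (Esrrb).

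**Figure D3:**
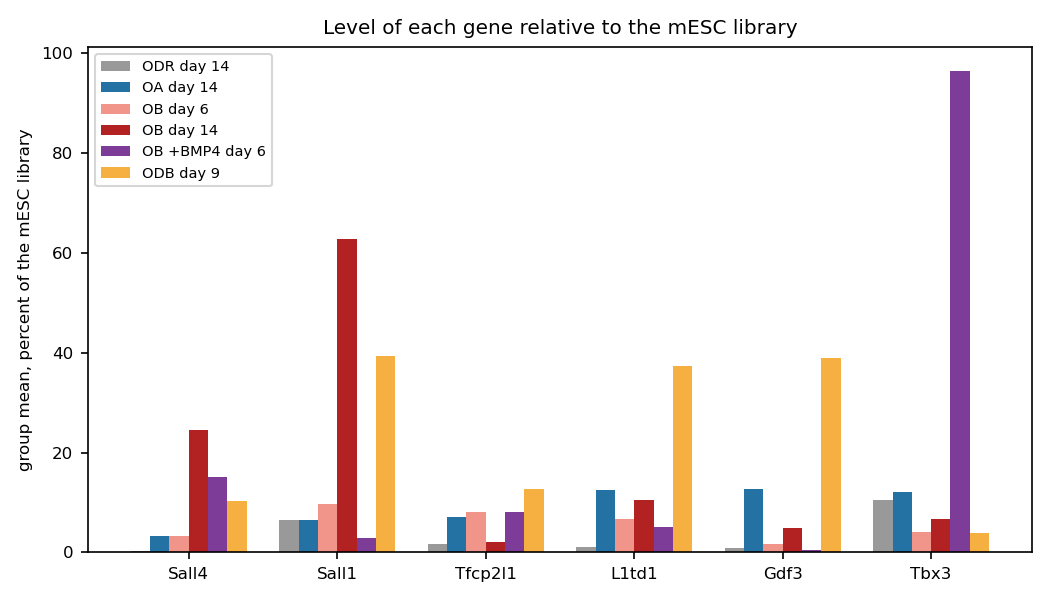
Group mean of 6 genes (x axis, Eras left out because mESC held only 3) as a percentage of the single mESC library, for 6 conditions (bars), with no error because mESC has 1 library. Sall1 reaches 62.8% in OB at day 14 and Tbx3 96.4% in OB with BMP4, while Tfcp2l1 does not pass 12.8% in any condition plotted.

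At day 9 the combinations ODB and ODDR can be set side by side, with 1 library each and no test. ODB held Kdm2b at 18690 and ODDR at 452. For 6 of the 7 members ODB was above ODDR. The share of all genes higher in ODB was not computed, so this count describes the listed values only. Sall4 was 134 against 4, Sall1 268 against 34, Tfcp2l1 802 against 318, L1td1 450 against 52, Gdf3 131 against 17, and Eras 39 against a listing at 0. The ODB values of Tfcp2l1, L1td1, Gdf3 and Eras were above every other infected library. Tbx3 was again the exception, at 32 in ODB and 66 in ODDR. As a percentage of mESC, ODB stood at 39.3 for Sall1, 38.9 for Gdf3, 37.3 for L1td1, 12.8 for Tfcp2l1 and 10.2 for Sall4. Caudal progenitor markers also stood high in ODB, with a summed level over 12 genes of 798 against 1 in ODDR. Their part in these differences was not tested.

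Tbx3 and Sall4 were higher and Sall1 lower in OB cells with BMP4 than without it. The choice of members does not name BMP4, but it does not leave out the OB libraries with BMP4 of day 6 either, and Tbx3 was higher in OB only there. The p-values below come from the fit over all genes and are not independent of that choice. In OB at day 6, 4 of 7 members were called (2 higher and 2 lower), where 32.5% of all genes were called, 15.0% higher and 17.5% lower. Tbx3 rose from 37, 29, 35 and 30 to 614 and 936 with BMP4, without overlap, a difference of 4.50 ± 0.44 (limma, adjusted p = 1.49e-06). Its mean of 775 was 96.4% of the mESC level. Sall4 rose from 58, 27, 55 and 32 to 172 and 226 (2.25 ± 0.78, adjusted p = 0.0347, limma), also without overlap. Sall1 fell from 115, 52, 66 and 32 to 21 and 18 (-1.57 ± 0.51, adjusted p = 0.0257, limma), so the 2 Spalt factors moved in opposite directions. Eras was the fourth, called lower, with values of 3 to 5 without BMP4 and a listing at 0 in both libraries with it, too few to carry weight. The other 3 members did not pass. Tfcp2l1 was 436 and 569 with BMP4 against 350 to 583 (0.01 ± 0.41, adjusted p = 0.998, limma), L1td1 64 and 60 against 62 to 126 (-0.29 ± 0.39) and Gdf3 3 and 0 against 2 to 15 (-1.48 ± 0.72). Sall4 lost its call without either library with BMP4 or without OB replicate 2 or 4. It was lost as well with a term for the replicate number in the fit (limma, adjusted p = 0.0957). The same held with the shared ODR library kept under both labels (limma, adjusted p = 0.0717) or as ODR with BMP4 (0.0805). Sall1 lost its call without either library with BMP4 or without OB replicate 1.

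In ODR the same comparison rests on 1 library with BMP4 and 2 without, with the spread taken from the other groups, and 2 of 7 members were called, both higher, where 11.5% of all genes were called and 5.06% were called higher. Tbx3 was 298 with BMP4 against 38 and 56 (2.66 ± 0.62, adjusted p = 0.00964, limma). Sall4 was 30 against 0 and 5 (3.66 ± 1.10, adjusted p = 0.0389, limma). Both genes thus rose with BMP4 in ODR as well as in OB. Tfcp2l1 was 191 against 63 and 57 (1.66 ± 0.57, adjusted p = 0.0719) and L1td1 27 against 7 and 12 (1.46 ± 0.55, adjusted p = 0.103), and neither passed limma's threshold. Sall1 was 30 against 26 and 36, and Gdf3 and Eras were listed at 0 in all 3 libraries. Without ODR day 6 replicate 1, both calls were lost (adjusted p = 0.0561 for Tbx3 and 0.240 for Sall4). They were lost as well where the shared library was counted as ODR with BMP4 (limma, adjusted p = 0.441 and 0.605). In that library Tbx3 was 60 and Sall4 was 1. Where it was counted as ODR without BMP4 instead, both calls stayed. Tfcp2l1 and L1td1, with differences of 1.75 and 2.05, were then called higher as well.

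**Figure D4:**
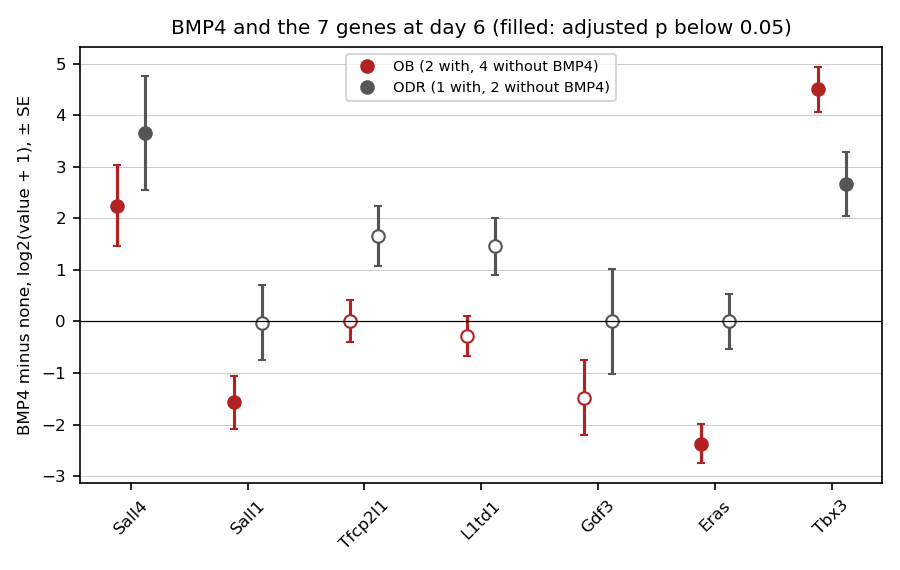
BMP4 minus none at day 6 for the 7 genes (x axis), as difference of mean log2(value + 1) with its SE, in OB (red) and ODR (grey); filled points have a limma adjusted p below 0.05. Tbx3 and Sall4 are above 0 in both, at 4.50 and 2.25 in OB and 2.66 and 3.66 in ODR, while Sall1 is at -1.57 in OB.

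Whether BMP4 acted differently in OB and ODR was tested as a difference of differences. Here limma called 0 of 7 members (1.26% of all genes called). Its unadjusted p was below 0.05 for 4 members, beside 1509 of the 13860 genes tested. The difference was 1.83 ± 0.76 for Tbx3 (adjusted p = 0.352). Eras had an adjusted p of 0.0924, with values of 5 or less behind it. The difference lay between -1.42 and -1.74 for the other 5. Tbx3 was called without the library labelled OA day 14 replicate 2 (limma, adjusted p = 0.0451). Since ODR has 1 library with BMP4, the test has little precision.

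Cultures with BMP4 also give the OB and ODR contrast. There limma called 0 of 7 (2.26% of all genes called). Its unadjusted p was below 0.05 for 4 members, beside 2055 of the 13860 genes tested. All of Sall4, Tfcp2l1, L1td1 and Tbx3 were higher in both OB libraries than in the ODR library, at 172 and 226 against 30 for Sall4, 436 and 569 against 191 for Tfcp2l1, 64 and 60 against 27 for L1td1 and 614 and 936 against 298 for Tbx3. The differences were 2.68 ± 1.10, 1.38 ± 0.57, 1.17 ± 0.55 and 1.34 ± 0.62, with adjusted p from 0.247 to 0.335. Sall1 was 21 and 18 against 30, Gdf3 3 and 0 against 0, and Eras was listed at 0 in all 3. With the shared library counted as ODR with BMP4, those 4 members were called (adjusted p from 0.0133 to 0.0178). The contrast therefore turns on which label that library belongs to, which cannot be told from the labels. In its values, Tbx3 at 60 and Tfcp2l1 at 49 lay nearer ODR without BMP4 (38 and 56, and 63 and 57) than with it. So did its summed trophoblast markers, at 109 beside 129 and 130 without and 664 with BMP4. Its limb mesenchyme markers summed to 1210, beside 1241 and 1326 without and 1895 with BMP4. Its fibroblast markers summed to 56638, beside 51046 and 61063 without and 39183 with BMP4. Of the lists summed in this library, the neural markers alone lay nearer the library with BMP4. Their sum of 3192 was below both, with 3874 and 4208 without and 3648 with BMP4. Which label is right was not tested.

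Other genes moved with BMP4 beside Tbx3 and Sall4. For BMP4 in OB at day 6, 32.5% of all genes were called, 15.0% higher and 17.5% lower. The list counts below stand beside these shares and were not tested as sets. Of 10 tested T-box genes, 3 rose in OB and none fell, with Tbx2, the closest relative of Tbx3, at 789 and 841 against 30, 29, 23 and 16 (5.04 ± 0.50, adjusted p = 1.64e-06, limma). In ODR, Tbx2 was 294 against 48 and 56 (adjusted p = 0.0291, limma). In the grainyhead group of Tfcp2l1, Grhl1 and Grhl3 rose and Grhl2 and Tfcp2 fell in OB. Trophoblast markers moved in the same libraries: 8 of 10 tested genes rose in OB, and the summed level of the 12 markers was 2122 and 3490 with BMP4 against 139 to 175 without. Among the defining genes of that list, Hand1 was 524 and 669 with BMP4 and at 0 without, while Elf5 was at 0 and Cdx2 at 0 and 1 with BMP4. Limb mesenchyme markers summed to 2677 and 2640 against 913 to 1066, with 3 of 10 higher and 3 lower. The library labelled OA day 14 replicate 2, where Tbx3 was 197, had a trophoblast sum of 1416 against 240 and 179 in the other OA libraries of that day. Neural markers summed to 2761 and 3005 with BMP4 in OB against 5470 to 6921 without, with none higher and 5 lower of 13, and caudal progenitor markers to 143 and 176 against 30 to 66, with 4 higher and 1 lower of 8. Of 9 primitive endoderm markers 5 were higher and 2 lower (sums of 3830 and 4217 against 4135 to 4445), and of 20 fibroblast markers 4 were higher and 10 lower (47687 and 48752 against 54925 to 58304). The part of these cell types in the Tbx3 and Sall4 values was not tested.

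The remaining pathway lists give the setting. Of 32 other pluripotency genes 20 could be tested. In OB against ODR 4 were called higher and none lower at day 6, and 10 higher and 2 lower at day 14, where 10.5% and 54.7% of all genes were called. The list's median log2 difference was 0.34 and 1.37, beside -0.01 and 0.01 over all genes. For OA the counts were 1 and 0 at day 6 and 5 and 0 at day 14 (2.22% and 5.35% of all genes called). With BMP4, where 32.5% of all genes were called in OB and 11.5% in ODR, 6 rose and 1 fell in OB, with Klf4, a factor of the naive state, at 400 and 511 against 67 to 108 (2.51 ± 0.33, adjusted p = 2.9e-05, limma). In ODR 2 rose, with Klf4 at 239 against 61 and 80 (1.76 ± 0.47, adjusted p = 0.022, limma). Of 9 LIF and STAT3 genes, 1 rose and 4 fell in OB with BMP4, and 1 rose and 3 fell in ODR, beside the same shares of all genes. Of 9 tested genes of the Nodal branch, to which Gdf3 belongs, 3 rose and 1 fell in OB with BMP4. The signal transducer Smad3 was 89 and 122 against 323 to 426 (-1.80 ± 0.21, adjusted p = 8.44e-06, limma), and the receptor gene Acvr1b rose by 1.13 ± 0.19 (adjusted p = 0.000217, limma).

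Markers of other cell types differed between OB and ODR in the libraries that hold the Spalt genes high. Of all genes, 10.5% were called at day 6 (5.74% higher) and 54.7% at day 14 (28.0% higher), and the list counts stand beside these shares. At day 14, 8 of 8 tested caudal progenitor markers were called higher in OB, and their sum was 981 to 1125 against 0 to 1 in ODR, with T at 59, 43 and 52 and Nkx1-2 at 496, 502 and 402. At day 6, 9 of 13 neural markers were called higher, with sums of 5470 to 6921 against 3874 to 4208. At day 14 their sum was lower in OB, at 2814 to 3440 against 4058 to 5387, with 5 markers called higher and 1 lower. Nephron progenitor markers, a kidney cell type that expresses Sall1, had 1 higher and 2 lower of 7 at day 14, with the defining gene Six2 at 1, 2 and 0 in OB. Fibroblast markers summed to 32185 to 50619 in OB and 62680 to 74345 in ODR at day 14. How much these cell types contribute to Sall4 and Sall1 was not tested.

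Over the 15 conditions with a library of their own, the genes most like each member in mean log2 level were sought by Pearson correlation, as a description. Among the closest to Sall4 were Srcap, a chromatin remodeller (r = 0.945), and Zfp868 (0.943). For Sall1 they were Srrm1 (0.941), Rbmxl1 and Srrt, and for Tfcp2l1 Arvcf (0.935), Rnf216 and Phyh. For L1td1 they were Clcn3 (0.946), Spen and Dut, for Gdf3 Pianp (0.917), Pipox and Morc1, and for Eras Trh (0.929), Vax1 and Nkx1-2. Among the closest to Tbx3 were Dusp1, a phosphatase of the MAP kinase pathway (0.935), and Klhl28. Among the members, L1td1 and Gdf3 had the highest correlation (r = 0.894) and Eras and Tbx3 the lowest (r = -0.323). Tbx3 did not exceed r = 0.334 with any other member. The conditions include the mESC library, which is high for most members, and they share factors and medium, so these values rank likeness only.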

How the data were processed

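RNA of infected cells, mESC and MEF was sequenced in 35 libraries. The tools named are bcl2fastq, Bowtie2 2.2.5 and RSEM, with build mm10, per the submitters' processing notes. The deposited table holds a score per gene and library, a normalized tag count in whole numbers. How it was normalized is not stated in the labels or the table. The columns total 4255921 to 4398785 with a ceiling of 18690, and the depth behind them is unknown, so no count model was used and the precision of low values cannot be given. Genes of at least 10 in 2 libraries were kept (13860 of 21350). Values were taken as log2(value + 1) and fitted with limma 3.58.1 (R 4.3.3), without a replicate block, over 27 libraries in 11 groups (16 residual degrees of freedom). The fit gave 17 comparisons, with Benjamini-Hochberg adjustment over all genes and a threshold of 0.05. A difference on this scale understates the change of low genes. Unreplicated day 9, mESC and MEF libraries enter no test.

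Members and lists were chosen with earlier results of these data known. Named genes are the 7 members, Kdm2a, Kdm2b and Pou5f1, up to 3 genes per list by smallest adjusted p, all genes of lists of at most 6, and the 3 nearest genes by pattern; some genes that this rule names are not reported here. The cell type markers given by library (Nanog, Zfp42, Esrrb, Nodal, T, Nkx1-2, Six2, Hand1, Elf5 and Cdx2) were named after their values were seen. Alternatives changed the pseudocount, filter, scaling, variance model, groups fitted, replicate block, shared library and single libraries.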

Additional observations from a re-analysis of the deposited data

Results flagged for a closer look

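In OB at day 6, 1 library stood apart from the other 3 for 2 members, by the gap to its neighbour relative to the range of the group. L1td1 was 126 in replicate 1 against 65, 62 and 65, and Gdf3 was 15 against 2, 4 and 3. Replicate 1 was also the highest or tied highest library of that group for the other 5 members. There were 7 such groups of members examined, and chance flags about 1 in 20. No difference between OB and ODR in the BMP4 comparison passed its test in the fit as reported.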

How the results depend on the processing

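No called difference changed sign under the alternatives run. Of the differences that were not called, 19 changed sign under at least 1 alternative, such as Tfcp2l1 for OB against ODR at day 14 (0.18, and -0.14 without OB day 14 replicate 2) and Tbx3 for OB against OA at day 14 (-0.52, and 0.16 without the library labelled OA day 14 replicate 2). Of 274 recomputed counts of members called, 245 stayed within 1.5 times the reported count, and of the single-gene results 1760 kept their side of the threshold, 73 lost their call and 30 gained one. BMP4 in ODR depended most on the settings. Its 2 called members became 1 with no filter, 0 with the shared library under both labels or as ODR with BMP4, 4 with it as ODR without BMP4, 0 with only the groups compared, and 0 to 2 when libraries were left out. Over all genes, 1598 calls became 0, 7, 1951 and 0 under both labels, as ODR with BMP4, as ODR without BMP4 and with only the groups compared. OB against ODR with BMP4 went from 0 members to 4 with the shared library under both labels and 4 as ODR with BMP4 (313 genes to 1401 and 1332). The difference of BMP4 effects went from 0 to 2 (both labels) and 1 (as ODR with BMP4), and to between 0 and 1 with libraries left out. OB against ODR at day 1 went from 1 to 0 under both labels, 0 as ODR with BMP4, 0 with only the groups compared and 0 to 1 with libraries left out (122 genes to 70, 69 and 13). At day 6 it went from 5 to 3 with only the groups compared and 3 to 5 with libraries left out. OA against ODR at day 14 went from 5 to 0 with only the groups compared (741 genes to 5) and 3 to 4 with libraries left out, and at day 6 from 2 to between 1 and 3. BMP4 in OB gave 2 to 4 with libraries left out. In time, ODR from day 1 to 14 went from 2 to 1 with the shared library as ODR with BMP4 and 1 to 3 with libraries left out, and OA from 5 to 3 with only the groups compared (5603 genes to 1518). With only the groups compared, the filter was applied anew to their libraries, and genes below it were not tested. For OB against ODR at day 6 this left out Gdf3 and Eras, and no tested member lost its call. It left out Sall4 for BMP4 in ODR, and Eras for OA against ODR at day 14 and for OA in time. The cause of the other changes was not tested. Same-numbered libraries of 4 pairs of groups with 3 pairs each correlated at 0.032 to 0.316 in their deviations, and not every pair passed 0.1, so the numbers were not taken to pair them. Every library was closest to its own number in 3 of these 4, and 4 of 6 libraries in the fourth. Same-numbered libraries of these pairs of groups thus share some deviation, which the reported fit leaves in its spread. Pairs of groups with fewer shared numbers differed. At day 1 the correlation was 0.235 for ODR and OB and 0.222 for ODR and OA. At day 6 it was -0.163 and -0.048 for ODR and OB, and -0.107 and -0.051 for ODR and OA. For OB without and with BMP4 it was 0.043 and -0.112, so the day 6 groups of the BMP4 comparisons show no such sharing. With the replicate block, BMP4 in ODR had 1 member called against 2, BMP4 in OB 3 against 4, and OB against ODR at day 6 had 6 against 5. Sall4 was the member lost in both BMP4 comparisons, and Sall1 the member gained at day 6 (1.48 with the block). Leaving out the 1 library of ODR with BMP4 could not be run, and Eras gave no value with a filter of 50. Depth is unknown, so values below 10, as for Eras and most of Gdf3, carry no stated precision.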

Other observations

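The shared day 6 library, labelled ODR without BMP4 and ODR with BMP4, held Sall4 at 1, Sall1 at 22, Tfcp2l1 at 49, L1td1 at 2, Gdf3 at 0, Eras at 0 and Tbx3 at 60. The shared day 9 library, labelled ODDR with BMP4 and ODB with BMP4, held Sall4 at 66, Sall1 at 37, Tfcp2l1 at 392, L1td1 at 74, Gdf3 at 6, Eras at 0 and Tbx3 at 298. Its Kdm2b value was 239, beside 452 in ODDR and 18690 in ODB without BMP4.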
